A study of Arabidopsis thaliana with 30 samples.

Results

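Seedlings of the Arabidopsis mutant Δlinda answered a DNA-breaking drug and UV-C light with responses of very unequal size, and the 2 responses were compared gene by gene. The Zeocin response is the difference between Zeocin-treated and mock-treated Δlinda seedlings, and the UV-C response is the difference between UV-C-irradiated Δlinda seedlings and Δlinda seedlings kept in normal light. The comparison rests on the 15 Δlinda libraries of the 30 libraries in the series, chosen by their titles: mock (n = 3), Zeocin (n = 4), normal light (n = 4) and UV-C (n = 4). All were labelled whole seedlings, 14 days old, grown on agar plates with 10 h of light per day. Mock and Zeocin seedlings spent 3 h in liquid medium, the latter with 80 µg/ml Zeocin, and UV-C seedlings were taken 3 h after 2 kJ UV-C. The labels give no harvest time for normal light. All 4 groups carry the same mutation in LINDA, a long noncoding RNA gene, and the other 15 libraries are the same treatments of the wild type Col-0. The series design text states 4 samples per group, while 3 mock Δlinda libraries are at hand. The labels do not say whether libraries of a group came from separate cultures, so p-values measure the spread between these samples.

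Zeocin is a bleomycin-type drug that cuts both strands of DNA. In plants such breaks are sensed by the kinase ATM, which activates SOG1, a transcription factor that switches on repair genes and inhibitors of the cell cycle. UV-C mainly joins neighbouring pyrimidines, lesions that are removed by photolyases and by nucleotide excision repair, and it also damages RNA, proteins and membranes. Repressors of the MYB3R family act below SOG1 on genes of the G2 and M phases of the cell cycle.

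The deposited table holds estimated counts whose decimal mark had been lost, and the mark was put back per gene from the agreement of replicates. Genes that could not be read with a probability of 0.99 in all 15 Δlinda libraries were left out. The restored totals of the Δlinda libraries lay between 12.01 and 14.53 M counts (M, mega), except for 7.52 M in normal light replicate 1. No table used here ties LINDA to an identifier. AT3G00800, which general knowledge gives as its locus, had deposited entries of 0 to 5 in mock, 135 to 444 in Zeocin, 0 in normal light and 14 to 25 in UV-C Δlinda libraries. Its Col-0 entries were 0 to 13, 506 to 779, 0 to 1 and 74 to 148 in the same order. Its decimal marks could not be placed with certainty and no source used here gives the deleted part, so these entries check no label. Among the Zeocin libraries replicate 3 stood low and replicate 1 high for genes raised by Zeocin. Replicate 3 had the lowest of the 4 values for 80 of the 108 genes named below as higher with Zeocin only. It had the lowest for 198 of the 272 genes higher with both treatments. Replicate 1 had the highest value for 60 of the 108 and 160 of the 272. Ranks over all tested genes are not given here. Root markers set the 2 pairs of groups apart. The summed level of 6 root genes was 90.1 to 104 CPM (counts scaled to library size) in mock, 63.1 to 84.9 in Zeocin, 42.7 to 51.3 in normal light and 21.1 to 30.8 in UV-C libraries. CASP1, a root endodermis gene, had 15.7, 24.8 and 25.9 CPM in mock, 13.3, 21.7, 16.0 and 17.7 in Zeocin, 0, 0.33, 0 and 0.082 in normal light and 0 in all 4 UV-C libraries. PLT1, a root stem cell gene, had 5.04 ± 1.02 CPM in mock (SD, n = 3) and 0 counts in all 4 normal light libraries, while the other 5 root genes had counts there. Fewer cells of a type and less RNA per cell cannot be told apart in such libraries. The part of these markers in the results below was not tested. Chloroplast-encoded genes took 0.09% to 0.25% of tested counts in mock, 0.06% to 0.53% in Zeocin, 0.35% to 1.01% in normal light and 0.76% to 1.36% in UV-C libraries.

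Zeocin changed 610 of 20257 tested genes in Δlinda (3.01%) and UV-C changed 14072 (69.5%). Of the genes changed by Zeocin 507 rose (2.5% of all) and 103 fell (0.508%). With UV-C 7212 rose (35.6%) and 6860 fell (33.9%). A gene counts as changed when the adjusted p of edgeR's quasi-likelihood test is under 0.05, and the difference between the 2 responses was tested in the same fit. That difference passed for 11285 genes (55.7%): the log2 fold was larger with Zeocin for 5609 (27.7%) and larger with UV-C for 5676 (28.0%). Genes were sorted into 8 classes by these calls. Both responses had to pass for a gene to be shared or opposite, and a gene was put under 1 treatment only when its other response did not pass and the difference between the responses did.

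**Figure D1:**
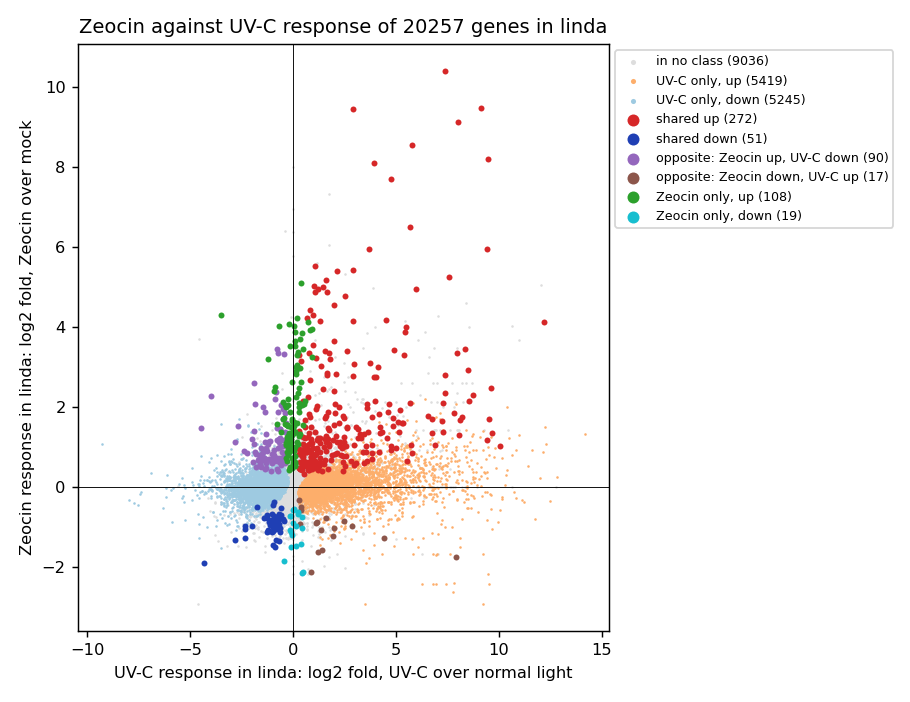
Log2 folds of 20257 genes in Δlinda, UV-C over normal light on the horizontal axis and Zeocin over mock on the vertical axis; each point is a gene, coloured by class; folds of genes with an empty control are fitted values and no bounds. The cloud is far wider along the UV-C axis, and the genes higher with Zeocin lie to both sides of it, 272 with UV-C up and 90 with UV-C down.

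Genes that rose with Zeocin were spread over all UV-C outcomes. Of the 507, 272 also rose with UV-C (53.6%), 90 fell (17.8%) and 145 did not pass (28.6%), beside 35.6%, 33.9% and 30.5% of all genes. Of the 103 genes that fell with Zeocin, 51 also fell with UV-C (49.5%), 17 rose (16.5%) and 35 did not pass (34.0%). The 272 genes are 3.77% of those that rose with UV-C and the 51 are 0.743% of those that fell. Across all 20257 genes the log2 folds of the 2 responses had a Pearson r of 0.24 and a Spearman rho of 0.23, as a description, since genes of 1 set of libraries are not independent. The pairs share no library, so no common control links the 2 folds.

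**Figure D2:**
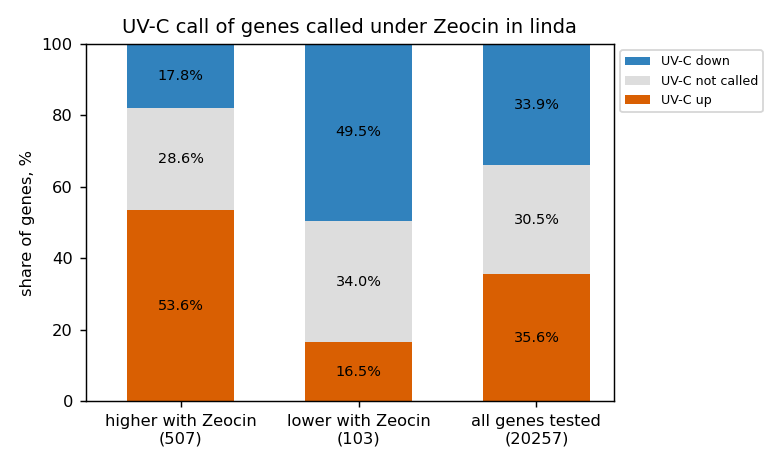
Share of genes that rose, fell or did not pass with UV-C in Δlinda, for the 507 genes higher with Zeocin, the 103 lower with Zeocin and all 20257 tested. Higher genes were raised by UV-C in 53.6% of cases and lower genes were lowered by it in 49.5%, beside 35.6% and 33.9% of all genes.

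The 272 genes that rose with both treatments (1.34% of those tested) had a median log2 fold of 1.23 with Zeocin and 1.72 with UV-C, the latter 1.66 with folds against empty controls set to their lower bounds. The responses differed in size for 152 of them: 45 rose more with Zeocin and 107 more with UV-C. Genes of break repair were among those that rose more with Zeocin. XRI1, a gene needed for meiosis and induced by X-rays, had 20.8, 13.1 and 14.4 CPM in mock libraries and 847, 834, 551 and 709 in Zeocin libraries. In normal light it had 10.0, 10.6, 9.1 and 14.4 CPM, and after UV-C 23.1, 21.7, 19.9 and 28.5. Neither pair of groups overlapped, and the Zeocin values were far above all others. The log2 fold was 5.51 ± 0.23 (SE) with Zeocin and 1.07 ± 0.18 with UV-C, and their difference was 4.44 ± 0.27 (edgeR adjusted p = 3e-14).

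The same order held for BRCA1, a ubiquitin ligase of recombination repair. Its log2 fold was 4.87 ± 0.27 with Zeocin and 1.07 ± 0.24 with UV-C (adjusted p of the difference = 1.8e-10, edgeR). PARP2, which marks DNA breaks with ADP-ribose chains, had log2 folds of 5.01 ± 0.23 and 1.44 ± 0.2. TSO2, a small subunit of ribonucleotide reductase, the enzyme that makes DNA precursors, had 4.23 ± 0.22 and 0.68 ± 0.17.

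Regulators of the cell cycle and of transcription were also in the shared group. SMR7, an inhibitor of cyclin-dependent kinases, had 1.05, 1.37 and 0.814 CPM in mock and 342, 225, 152 and 188 in Zeocin libraries. In normal light it had 0, 0.0824, 0.204 and 0.574 CPM and after UV-C 3.13, 8.27, 10.5 and 5.96. Both treated groups lay above their controls in every library, with log2 folds of 7.7 ± 0.42 and 4.76 ± 0.55 (adjusted p of the difference = 0.026, edgeR). NAC044, a NAC factor that acts below SOG1, had log2 folds of 5.43 ± 0.52 and 2.92 ± 0.55 (adjusted p of the difference = 0.011, edgeR). Its relative NAC085 had 0.309, 0.248 and 0 CPM in mock and 18.9, 10.8, 8.22 and 10.1 in Zeocin libraries, and 0 in normal light against 5.3, 6.53, 6.51 and 7.24 after UV-C. It rose with both treatments, by a log2 fold of 5.94 ± 0.59 with Zeocin and at least 20.1-fold with UV-C against a floor of 3 counts per library. The difference did not pass (adjusted p = 0.15, edgeR). AGO2, an ARGONAUTE protein linked to small RNAs at breaks, had folds of 2.83 ± 0.2 and 2.09 ± 0.19 (adjusted p of the difference = 0.017, edgeR).

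By the rule for named genes, 8 genes led the shared rises by the smaller of their 2 folds, NAC085 among them. Where a control held 0 counts the fold is a lower bound, and where it held 1 to 3 counts it is a ratio with its counting interval. AT4G25330, a SAWADEE domain protein by RefSeq's product name, had 1 count in all mock libraries and 31.6, 19.2, 17.4 and 17.7 CPM with Zeocin, 1040-fold more (95% exact counting interval 187 to 41200). It had 0 counts in normal light and 4.0, 6.7, 4.66 and 5.62 CPM after UV-C, at least 16.5-fold more. The Zeocin values lay above the UV-C values in every library. DRP4C, a dynamin-related protein, had 0 counts in both controls and rose at least 14.7-fold with Zeocin and at least 21.0-fold with UV-C. AT1G20750, a RAD3-like helicase, had 38.6 to 43.1 CPM with Zeocin and 1.07 to 2.44 after UV-C, with 1 count in all mock libraries and 0 in normal light. AT4G22960, a FAM63A-like protein, rose from 0.768 ± 0.285 to 69.9 ± 14.2 CPM with Zeocin (log2 6.49 ± 0.32) and from 0.382 ± 0.403 to 19.5 ± 3.73 with UV-C (5.68 ± 0.35). AT2G04495, uncharacterised, had 0.876 to 1.88 CPM with Zeocin and 32.0 to 39.8 after UV-C, so its higher treated level was the UV-C one. AT1G30170 and AT4G05380 complete the 8. Their treated libraries lay above their controls in both responses, as the naming rule requires of all 8.

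Stress regulators were also among the shared genes. OXI1, a kinase of oxidative stress signalling, rose from 7.89 ± 2.84 to 80.6 ± 18.5 CPM with Zeocin and from 0.329 ± 0.402 to 100 ± 9.19 with UV-C. Its mock level was above its normal light level, and the treated levels lay close together. The log2 folds were 3.35 ± 0.33 and 7.97 ± 0.45 (adjusted p of the difference = 2.8e-07, edgeR). OM66, an outer mitochondrial membrane protein of stressed plants, had 1.35 ± 0.3 and 6.73 ± 0.33. For SAG101, a partner of the immune regulator EDS1, the folds were 1.99 ± 0.17 and 2.21 ± 0.16, and for NBR1, an autophagy receptor, 0.83 ± 0.12 and 1.1 ± 0.11. The differences of these 2 genes did not pass (adjusted p = 0.45 and 0.16, edgeR).

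The 51 genes that fell with both treatments (0.252% of those tested) had median log2 folds of -0.88 and -0.93. The difference passed for 8 of them, in each case with the larger fall after UV-C. Genes of cell division were among them. Of 23 tested genes of the G2 and M phases, 7 fell with both treatments. The list fell with Zeocin in 7 and with UV-C in 17, beside 0.508% and 33.9% of all genes. Its median log2 folds were -0.65 and -0.73, beside 0.0 and 0.02 over all genes. The shared falls of the list were 2 without mock replicate 2 or 3 or Zeocin replicate 1, and 3 without mock replicate 1 or Zeocin replicate 4 or with replicate numbers as a block. HIK, a kinesin that places the cell plate, had 23.9, 24.4 and 21.0 CPM in mock and 10.1, 14.3, 12.5 and 12.0 in Zeocin libraries. It had 13.8, 27.7, 23.7 and 26.7 CPM in normal light and 13.0, 12.7, 12.6 and 18.4 after UV-C. The Zeocin pair was apart. The UV-C pair overlapped only because normal light replicate 1, the shallow library, lay below UV-C replicate 4. The log2 folds were -0.92 ± 0.22 and -0.71 ± 0.21 (edgeR adjusted p = 0.0093 and 0.0033).

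CYCB1;2, a B-type cyclin that drives entry into mitosis, fell from 19.0 ± 1.74 to 10.5 ± 2.73 CPM with Zeocin and from 23.8 ± 4.53 to 11.9 ± 1.53 with UV-C. CYCB1;3, CYCB1;4 and CYCB2;3, the microtubule bundler PLE and the Aurora kinase AUR1 fell with both as well. TES, a kinesin of cytokinesis, was the 1 member that rose with UV-C (0.81 ± 0.19). The number of genes that fell with both depended on single libraries: it was 17 in place of 51 without Zeocin replicate 1, and 29, 28 and 24 without mock replicates 1, 2 and 3.

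AT5G62360, of the invertase and pectin methylesterase inhibitor superfamily, came first of the 8 genes named for the shared falls. Its log2 folds were -1.9 ± 0.44 and -4.35 ± 0.51. Its mock levels were 4.08, 17.8 and 4.26 CPM, and the Zeocin fold did not pass without mock replicate 2 or Zeocin replicate 1 (edgeR adjusted p = 0.48 and 0.062). BXL1, a cell wall beta-xylosidase, had 162, 175 and 212 CPM in mock and 73.7, 94.6, 24.9 and 102 in Zeocin libraries, and 41.1 to 65.5 in normal light against 4.77 to 11.1 after UV-C. NRT1.5, a nitrate carrier of the root stele, fell from 108 ± 23.2 to 44.8 ± 4.09 CPM with Zeocin and from 11.1 ± 2.36 to 2.17 ± 1.15 with UV-C. The NRT1.5 levels of the 2 pairs did not meet. Of the 6 root markers above none passed with Zeocin and 2 fell with UV-C, and their summed level was lower in each treated group than in its control. The part of the root in the NRT1.5 result was not tested. The kinesin-like AT4G26660 had nearly equal folds, -1.09 ± 0.23 and -1.16 ± 0.22. AGT3, AT3G09450, AT3G12870 and AT4G27450 complete the 8, with log2 folds from -1.44 to -1.04 with Zeocin and from -2.34 to -0.99 with UV-C. The Zeocin call of AGT3 was lost under 19 of 25 alternatives (edgeR adjusted p up to 0.19), that of AT3G09450 under 7 of 25 (up to 0.42) and that of AT3G12870 under 3 of 25 (up to 0.12). AT4G27450 lost its Zeocin call under 6 of 24 and its UV-C call under 7 (up to 0.13 and 0.14). BXL1 lost its Zeocin call under 6 of 24 (up to 0.13), among them without each mock replicate and without Zeocin replicate 1 or 3.

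Zeocin alone raised 108 genes (0.533% of those tested), with a median log2 fold of 1.56 against -0.03 with UV-C. Genes of DNA repair and checkpoints were among them. AT2G45460, a protein with a phosphopeptide-binding FHA domain, had 12.8, 9.75 and 7.95 CPM in mock and 171, 193, 135 and 166 in Zeocin libraries. It had 8.13, 11.4, 9.91 and 8.86 CPM in normal light and 8.25, 10.3, 9.33 and 11.2 after UV-C. The normal light and UV-C values overlapped fully, and the Zeocin values lay far above all others. The log2 folds were 4.03 ± 0.21 and 0.02 ± 0.19 (adjusted p of the difference = 2.2e-13, edgeR).

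TRFL10, a member of the TRF-like family of telomere-repeat binding proteins, had 6.25, 4.97 and 3.63 CPM in mock and 223, 198, 86.6 and 175 with Zeocin, the low value again in replicate 3. It had 3.07 to 5.79 CPM in normal light and 4.18 to 6.3 after UV-C. RPA1E (AT4G19130), a subunit of the protein that coats single-stranded DNA, rose by 4.08 ± 0.26 with Zeocin and had -0.21 ± 0.3 with UV-C. AT5G49110, similar to the Fanconi anaemia protein FANCI, had 3.87 ± 0.31 and 0.07 ± 0.33. KCS17, an enzyme of very-long-chain fatty acid synthesis, had 4.22 ± 0.35 and 0.21 ± 0.39. IAA5, an auxin-induced repressor of auxin signalling, had 3.53 ± 0.54 and -0.15 ± 0.5. AT4G03275, a noncoding RNA gene, had 4.03 ± 0.31 and -0.71 ± 0.4. AT1G68240, a bHLH factor, rose with Zeocin by 4.3 ± 0.46 and had 4 counts in all normal light and 0 in all UV-C libraries, so it gives no UV-C fold.

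**Figure D3:**
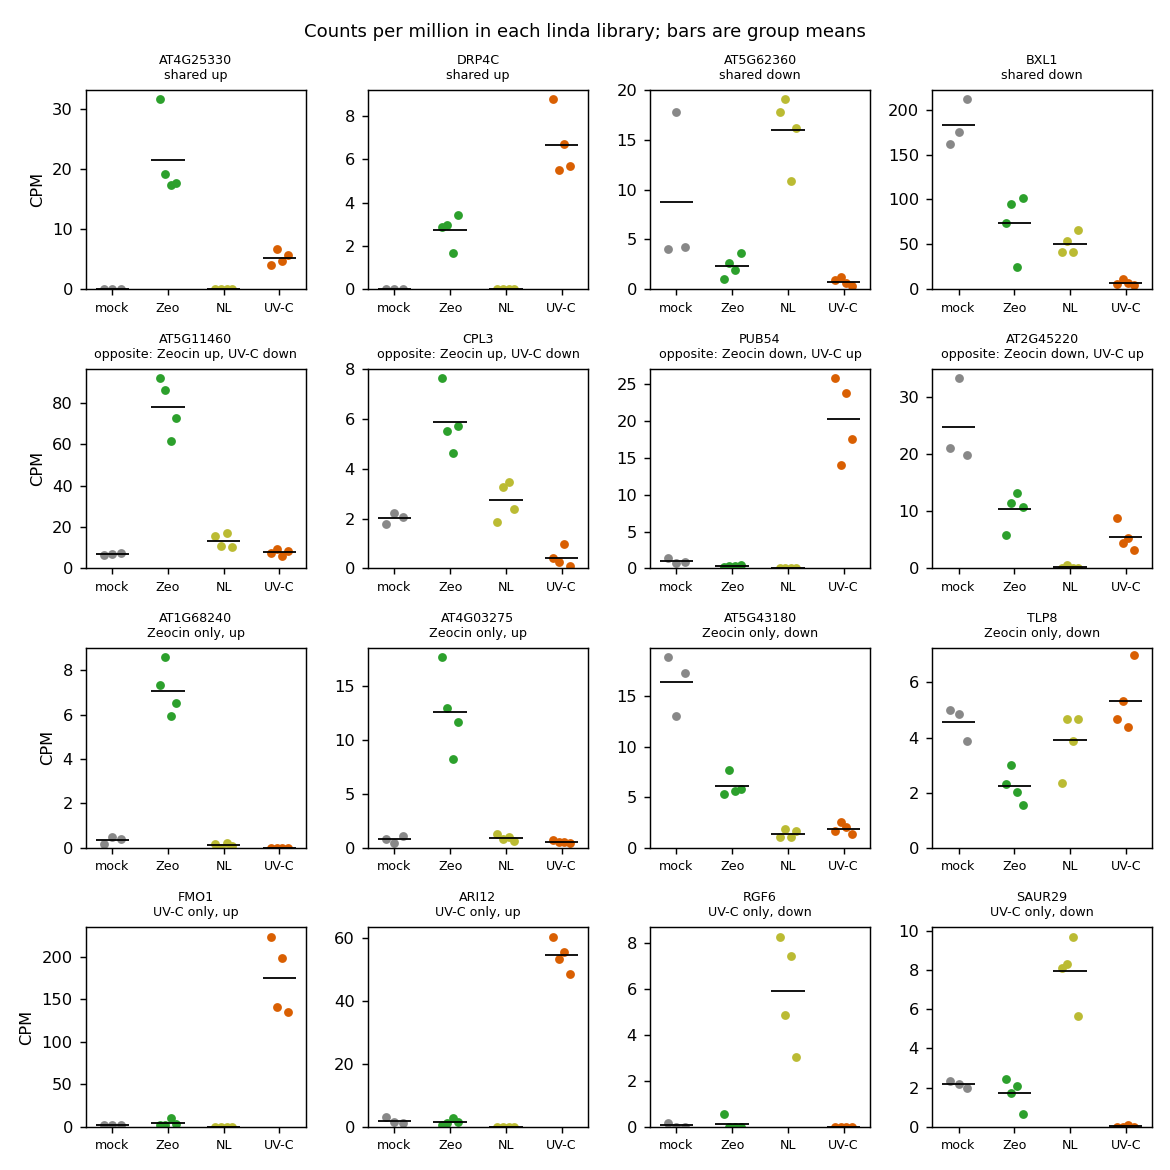
CPM in each Δlinda library for the first 2 genes of each class by the naming rule; points are libraries, bars are group means, and each panel starts at 0. AT5G11460 is at 61.7 to 92.3 CPM in Zeocin libraries alone, FMO1 at 135 to 224 in UV-C libraries alone, and RGF6 stands above 3 CPM in normal light alone.

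The list of break-response genes splits between these classes. Of 25 genes 24 were tested: 21 rose with Zeocin and 12 with UV-C, 12 rose with both, 8 with Zeocin only, and none with UV-C only. Of all tested genes 2.5% rose with Zeocin, 35.6% with UV-C, 1.34% with both and 0.533% with Zeocin only. The median log2 fold of the 24 was 4.0 with Zeocin and 0.69 with UV-C. The difference passed for 20 of them, always larger with Zeocin, as it was for 27.7% of all genes. This list was drawn up with the Zeocin response of these data known. RAD17, which loads a checkpoint clamp at damaged DNA, had 7.36, 4.78 and 6.76 CPM in mock and 83.4, 94.6, 55.9 and 80.3 in Zeocin libraries. It had 6.54 to 9.07 CPM in normal light and 6.08 to 9.28 after UV-C. The latter 2 groups overlapped, with log2 folds of 3.64 ± 0.23 and 0.08 ± 0.22 (adjusted p of the difference = 4.8e-11, edgeR).

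CYCB1;1, the B-type cyclin that is raised after DNA breaks and takes part in repair, rose from 7.26 ± 0.248 to 83.2 ± 20.7 CPM with Zeocin and had 8.09 ± 2.08 and 8.87 ± 1.78 CPM in the UV-C pair. It thus moved against its relatives CYCB1;2, CYCB1;3 and CYCB1;4, which fell with Zeocin. GR1, the plant relative of the end-resection factor COM1, had 4.13 ± 0.34 and 0.7 ± 0.38. MND1, a helper of strand exchange, had 3.29 ± 0.22 and 0.19 ± 0.22. The kinase WEE1, which delays division, had 1.49 ± 0.29 and -0.09 ± 0.3. The inhibitors of cyclin-dependent kinases KRP6 and SMR4 had 2.48 ± 0.23 and 3.93 ± 0.48 with Zeocin, against 0.27 ± 0.23 and 0.83 ± 0.55 with UV-C. RNR1, which encodes the reductase's large subunit, went up from 73.2 ± 12.0 to 339 ± 33.9 CPM with Zeocin only, while the small subunit TSO2 rose with both. BARD1, the usual partner of BRCA1, was the 1 member called lower with Zeocin, and it was called lower with both treatments (-0.79 ± 0.2 and -0.76 ± 0.2). The Zeocin call was lost with replicate numbers as a block and without mock replicate 1 or 3 or Zeocin replicate 1, 2 or 4. SMR5 could not be read in this table.

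Zeocin alone lowered 19 genes (0.0938% of those tested; median log2 fold -1.03 with Zeocin and 0.02 with UV-C). AT2G44580 had 7.73, 6.46 and 6.76 CPM in mock and 2.13, 1.62, 2.09 and 1.88 in Zeocin libraries, and 4.54 to 7.66 in normal light against 4.69 to 4.86 after UV-C. Its folds were -1.85 ± 0.23 and -0.45 ± 0.21. PHO1, which loads phosphate into the xylem, fell from 66.8 ± 15.9 to 31.0 ± 2.48 CPM with Zeocin and stood at 10.0 ± 2.61 and 9.4 ± 3.28 CPM in the UV-C pair. MCM4, a subunit of the replicative helicase, fell from 24.4 ± 3.03 to 14.9 ± 2.63 CPM with Zeocin only (-0.72 ± 0.16). AT5G43180, TLP8, CALS1, a callose synthase, AT3G14740, AT3G23740 and 3xHMG-box1 were the others named by rule, with log2 folds from -1.43 to -0.68 with Zeocin. The Zeocin calls of TLP8, CALS1, AT3G14740, AT3G23740 and 3xHMG-box1 were each lost under 4 to 7 alternatives (edgeR adjusted p up to 0.12, 0.18, 0.11, 0.075 and 0.12), and that of PHO1 without mock replicate 1 (0.055). The class held 6 genes without mock replicate 1, 10 without mock replicate 3 and 9 without Zeocin replicate 1.

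A further 107 genes moved in opposite directions. Of these, 90 rose with Zeocin and fell with UV-C (0.444% of those tested; median log2 folds 0.9 and -1.04). AT5G11460, a DUF581 protein of unknown function, came first by rule. Without mock replicate 1 the group held 58 genes. It had 6.56, 7.02 and 7.7 CPM in mock and 92.3, 86.3, 61.7 and 73.0 in Zeocin libraries, and 15.5, 10.9, 17.1 and 10.4 in normal light against 7.64, 9.31, 5.93 and 8.34 after UV-C. Neither pair overlapped, as the naming rule requires, and mock lay near the UV-C level. The log2 folds were 3.46 ± 0.2 and -0.77 ± 0.18 (edgeR adjusted p = 2.8e-14 and 0.00046).

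AT5G23910, a microtubule motor protein by its product name, rose from 15.1 ± 1.14 to 155 ± 39.1 CPM with Zeocin and fell from 16.7 ± 2.45 to 10.2 ± 2.16 with UV-C. ABCB13, a transporter related to auxin carriers, had 2.07 ± 0.27 and -1.87 ± 0.33. HAM3, a GRAS factor that keeps meristems undifferentiated, had 19.3, 23.8 and 17.8 CPM in mock, 36.0, 36.9, 41.2 and 38.0 with Zeocin, 22.1, 19.8, 24.5 and 16.4 in normal light and 4.26, 2.61, 3.6 and 5.28 after UV-C. Its controls were alike and its treated groups lay on either side of them. CPL3, a small MYB protein of epidermal patterning, had 1.53 ± 0.35 and -2.69 ± 0.44. GH9B5, a glycosyl hydrolase of the cellulase family, had 1.13 ± 0.31 and -2.84 ± 0.33, and its Zeocin call was lost under 9 of 25 alternatives (edgeR adjusted p up to 0.26), among them without each mock replicate and without Zeocin replicate 1, 2 or 4. That of CPL3 was lost without mock replicate 1 (0.062). AT3G14560 and AT1G12020, both uncharacterised, had 2.01 ± 0.22 and 1.4 ± 0.21 with Zeocin and -1.46 ± 0.27 and -1.91 ± 0.22 with UV-C.

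From the lists, IAA29, another auxin-induced repressor, had 2.27 ± 0.55 and -3.98 ± 0.67. PARP1, a poly(ADP-ribose) polymerase, rose from 15.7 ± 2.48 to 157 ± 36.1 CPM with Zeocin. Its fall with UV-C, from 14.8 ± 1.81 to 10.8 ± 2.24, was small and came from overlapping groups (-0.46 ± 0.19, edgeR adjusted p = 0.038). That call was lost without normal light replicate 1, 2 or 4 and without UV-C replicate 1, 2 or 3.

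The reverse pattern, lower with Zeocin and higher with UV-C, held for 17 genes (0.0839%). CYP79B3, which turns tryptophan into the precursor of indole glucosinolates and camalexin, had 73.3, 99.0 and 96.1 CPM in mock and 48.1, 34.0, 56.5 and 45.0 in Zeocin libraries. It had 31.4, 31.1, 30.3 and 32.5 CPM in normal light and 220, 214, 217 and 254 after UV-C. Both pairs were apart, as the naming rule requires, with log2 folds of -0.96 ± 0.22 and 2.85 ± 0.22 (edgeR adjusted p = 0.0076 and 2.4e-12). The former was 0.057 without mock replicate 2.

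PUB54, a U-box protein, fell from 1.04 ± 0.29 to 0.303 ± 0.0683 CPM with Zeocin (edgeR adjusted p = 0.049) and rose from 3 counts in all to 20.3 ± 5.42 CPM with UV-C, 273-fold (95% exact counting interval 93.2 to 1330). BGAL4, a beta-galactosidase, had -1.56 ± 0.36 and 1.41 ± 0.37. ETR2, an ethylene receptor, had -1.07 ± 0.28 and 1.33 ± 0.29. AT2G45220, a pectin methylesterase, and AT1G02460, of the pectin lyase-like superfamily, had -1.26 ± 0.34 and -1.01 ± 0.23 with Zeocin and 4.42 ± 0.61 and 1.97 ± 0.21 with UV-C. AT3G23510, AT2G39980 and AT5G54970 complete the 8. The median log2 difference of mock from normal light in the class, with 0.1 CPM added, was 1.51, and PUB54, AT2G45220 and AT3G23510 show it in every library. The Zeocin call of PUB54 was lost under 13 of 23 alternatives, each of which left out 1 library (edgeR adjusted p up to 0.29). Those of AT2G45220 and BGAL4 were lost under 6 of 24 and 2 of 23 (up to 0.27 and 0.058). The class held 8 genes without mock replicate 3, 8 without Zeocin replicate 1 and 10 without mock replicate 1.

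UV-C alone raised 5419 genes (26.8% of those tested; median log2 fold 1.42 with UV-C, 1.39 with folds against empty controls at their bounds, and 0.01 with Zeocin). Immune and hormone lists come first, to be read beside all tested genes. Of the latter 35.6% rose and 33.9% fell with UV-C, and 2.5% rose and 0.508% fell with Zeocin. These shares also stand beside the lists of organelle and protein stress below. Of 14 tested genes of salicylic acid synthesis and signalling, 13 rose with UV-C only and SAG101 rose with both. The median log2 folds were 4.88 with UV-C and 0.02 with Zeocin. FMO1, which makes the immune signal N-hydroxypipecolic acid, had 2.04, 1.92 and 1.56 CPM in mock, 2.0, 2.44, 10.8 and 3.36 with Zeocin, 0 in normal light and 224, 141, 199 and 135 after UV-C. It rose at least 550-fold with UV-C, and its single higher Zeocin value was in replicate 3. ICS1, the enzyme that starts salicylic acid synthesis, had 3.99 ± 0.16 with UV-C and 0.13 ± 0.17 with Zeocin. WRKY70 had 4.75 ± 0.37 and -0.36 ± 0.37. SARD1, PR1 and PR2 could not be read.

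Of 14 genes of pattern-triggered immunity 12 rose with UV-C and none passed with Zeocin (medians 3.9 and 0.14). MPK11, a MAP kinase, had 7.72 ± 0.39 with UV-C and 0.88 ± 0.47 with Zeocin, and WRKY33, a factor of camalexin synthesis, 5.2 ± 0.42 and 0.69 ± 0.38. Of 14 ethylene genes 11 rose with UV-C and 1, ETR2, fell with Zeocin, a call lost from the list's count without mock replicate 1 or 3 or Zeocin replicate 1 or 3. ACS2, an enzyme of ethylene synthesis, had 1.92, 2.79 and 4.01 CPM in mock, 2.44, 4.81, 2.76 and 5.57 with Zeocin, 0, 0.0824, 0.102 and 0.492 in normal light and 248, 295, 320 and 255 after UV-C. The UV-C values stood alone (log2 fold 10.41 ± 0.39, adjusted p of the difference = 7.9e-15, edgeR). Of 16 jasmonate genes 12 rose with UV-C, among them the repressor JAZ1 (6.33 ± 0.24), and none passed with Zeocin (medians 2.13 and -0.18, the former 1.74 with an empty control at its bound).

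Genes of organelle and protein stress followed. All 7 tested genes of the mitochondrial stress response rose with UV-C (median 4.79), and 1 of them, OM66, with Zeocin (median 0.67). The Zeocin count was 0 without mock replicate 1 or 2 and with the replicate block, and 2 without mock replicate 3 or Zeocin replicate 3, with DESeq2 and with the 15 Δlinda libraries alone. AOX1A, the alternative oxidase, had 65.0 ± 25.5 and 92.8 ± 27.2 CPM in mock and Zeocin and 65.3 ± 13.5 and 867 ± 155 in normal light and UV-C. Of 13 genes of the unfolded protein response 12 rose with UV-C (median 2.24) and 1, NAC103, with Zeocin. NAC103, which is also a target of SOG1, rose more with Zeocin (4.78 ± 0.27) than with UV-C (2.51 ± 0.29; adjusted p of the difference = 3.1e-05, edgeR), while the chaperone BIP2 had -0.11 ± 0.21 and 3.15 ± 0.21. Of 7 tested heat shock genes 6 rose with UV-C and none passed with Zeocin. Of the 12 listed, HSP17.6A, HSP17.4, HSFA2 and HSP21 could not be read and 1 was too low to test. HSP90.1 had 6.86 ± 0.42 with UV-C and 0.42 ± 0.35 with Zeocin. Of 16 genes of cell death 13 rose with UV-C and none passed with Zeocin (medians 0.8 and -0.04), with the metacaspase MC8 at 7.14 ± 0.56.

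Several leading genes of this class had very unequal controls. F6'H1 (AT3G13610), an oxygenase of scopoletin synthesis, had 56.1, 39.2 and 71.2 CPM in mock, 83.6, 51.2, 59.9 and 71.0 with Zeocin, 0 in normal light and 109, 46.2, 69.6 and 45.0 after UV-C. Its mock, Zeocin and UV-C values overlapped, and only normal light stood apart. SDR4, a short-chain dehydrogenase, showed the same arrangement, with 30.5 ± 23.2 CPM in mock, 0 in normal light and 38.5 ± 13.7 after UV-C. CRK39, a cysteine-rich receptor-like kinase, had 2 counts in all mock and 3 in all normal light libraries and rose to 61.9 ± 12.6 CPM with UV-C, 838-fold (95% exact counting interval 286 to 4060). ARI12, AT3G43250, CYP82G1 and AT4G39610 had 0 counts in normal light and rose at least 172-, 102-, 17.6- and 21.0-fold. The difference between the responses no longer passed for CRK39 without mock replicate 1, for AT3G43250 without mock replicate 3 and for AT4G39610 without mock replicate 2. The UV-C calls of these genes were kept under every alternative. Of the 5419 genes, 618 (11.4%) had a mock mean at or above the UV-C mean. Of the 5245 genes lowered by UV-C only, 782 (14.9%) had a mock mean at or below it.

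UV-C alone lowered 5245 genes (25.9% of those tested; median log2 fold -1.2, against -0.02 with Zeocin). Beside the lists of this class stand the 33.9% of all genes that fell and the 35.6% that rose with UV-C. All 19 tested nuclear genes of photosynthesis and chlorophyll synthesis fell with UV-C and none passed with Zeocin (medians -1.36 and 0.06). LHCB2.1, a light-harvesting protein, had 1550, 2370 and 2170 CPM in mock, 2040, 2080, 2710 and 2270 with Zeocin, 7270, 5750, 8020 and 5140 in normal light and 1260, 1970, 2060 and 1230 after UV-C. The UV-C level lay near the mock and Zeocin levels, and normal light stood above. GLK2, a factor that switches on these genes, had 116 ± 9.11, 103 ± 17.6, 252 ± 13.2 and 42.0 ± 4.83 CPM in the same order, and its UV-C level lay below all others.

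Genes of growth formed the second group. Of 12 auxin genes 8 fell with UV-C and 2 rose (median -2.37), and with Zeocin 3 rose (median -0.1), a count of 1 without mock replicate 2 or 3. The auxin carriers AUX1 and PIN7 had -3.03 ± 0.17 and -3.33 ± 0.21 with UV-C and -0.03 ± 0.16 and -0.14 ± 0.21 with Zeocin. Of 12 cell wall growth genes 10 fell with UV-C and none passed with Zeocin. EXPA8, an expansin that loosens walls, had 4.58, 6.33 and 2.57 CPM in mock, 2.19, 3.59, 8.08 and 3.42 with Zeocin, 208, 188, 236 and 90.3 in normal light and 2.08, 4.79, 3.89 and 1.11 after UV-C. Normal light alone was high. Of the 8 genes named by rule 6 were small auxin-up RNA (SAUR) genes. Their means were 7.96 to 16.5 CPM in normal light and 0.0243 to 0.385 after UV-C. They are SAUR29, SAUR20, SAUR68, AT1G29450, AT1G29460 and AT5G18030, near-identical copies whose reads may have been shared, so single values are uncertain. RGF6, a root growth factor peptide, had 3.04 to 8.29 CPM in normal light and 0 counts after UV-C, at least 22.1-fold less. For RGF6 the difference between the responses no longer passed without Zeocin replicate 1.

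All 6 genes of the stomatal lineage fell with UV-C only (median -1.81), among them the receptor-like TMM (-2.22 ± 0.17). Their summed level was 41.9 to 44.7 CPM in mock, 27.9 to 43.5 in Zeocin, 53.5 to 64.4 in normal light and 16.2 to 19.4 in UV-C libraries. Of 6 type-A cytokinin regulators 4 fell with UV-C and ARR5 rose (0.69 ± 0.28; a call lost without normal light replicate 1 or 3 or UV-C replicate 2, 3 or 4), and none passed with Zeocin. The 5 vascular markers had summed levels of 170 to 177 CPM in mock, 185 to 208 in Zeocin, 221 to 254 in normal light and 184 to 233 in UV-C libraries. The part of cell type makeup in these falls was not tested.

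**Figure D4:**
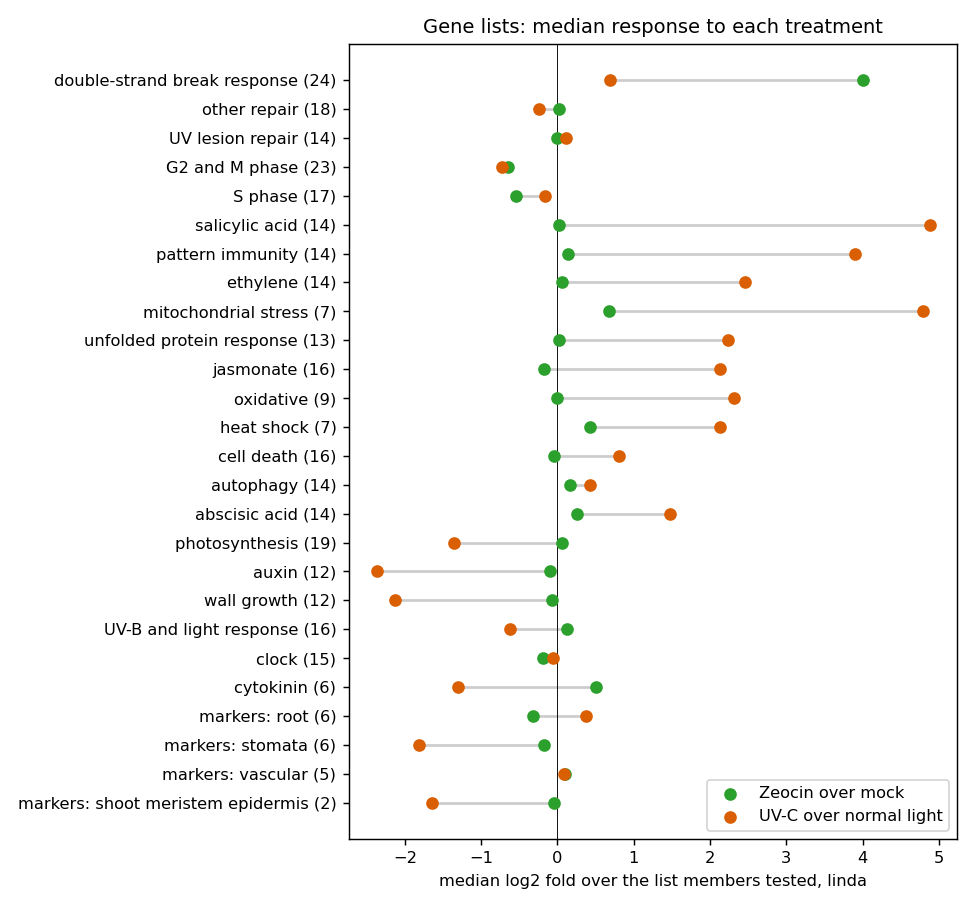
Median log2 fold of the tested members of each gene list in Δlinda, Zeocin over mock in green and UV-C over normal light in orange, with the number of members in brackets. The break-response list has medians of 4.0 with Zeocin and 0.69 with UV-C, and the salicylic acid list 0.02 and 4.88.

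Among all tested genes 2.5% rose and 0.508% fell with Zeocin, and 35.6% rose and 33.9% fell with UV-C. Of 18 repair genes outside the break response 2 rose with Zeocin, LIG4, the ligase of end joining (0.6 ± 0.13), and AT1G49980, of the DNA/RNA polymerase superfamily (1.84 ± 0.14), and none fell. With UV-C 4 rose and 7 fell. SOG1 itself had 13.7 ± 1.53 and 16.3 ± 1.69 CPM in mock and Zeocin, which did not pass (0.24 ± 0.13, edgeR adjusted p = 0.47), and rose from 10.5 ± 0.887 to 28.0 ± 3.21 CPM with UV-C (1.41 ± 0.13). The difference passed (edgeR adjusted p = 2.4e-06). Of 14 genes of UV lesion repair 5 rose and 3 fell with UV-C (median 0.11), against 3 and 5 without UV-C replicate 4. CEN2, a centrin of lesion recognition, had 3 counts in all normal light libraries and 9.15 ± 1.48 CPM after UV-C, 124-fold more (95% exact counting interval 42.0 to 601), with 13.8 ± 2.97 and 14.8 ± 1.99 in mock and Zeocin. The helicase-like CHR8 was the 1 member that rose with both (0.89 ± 0.16 and 0.43 ± 0.16). Without UV-C replicate 1 or 4 no member of the list was called higher with both. The photolyase UVR3 fell with UV-C (-0.91 ± 0.34), and PHR1 did not pass (-0.37 ± 0.18, edgeR adjusted p = 0.068).

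The same all-gene shares apply to the remaining lists. Of 17 S phase genes Zeocin raised RNR1 and lowered MCM2 and MCM4, and UV-C raised 2 and lowered 5. The S phase genes lowered by Zeocin were 0 without mock replicate 1, 1 without mock replicate 3 or Zeocin replicate 1, 2 or 4, 4 without UV-C replicate 4, 6 with DESeq2 and 7 without Zeocin replicate 3. Of 14 autophagy genes Zeocin raised NBR1, of 14 abscisic acid genes HAI2 (2.78 ± 0.64; no longer called without mock replicate 1), and of 9 genes of oxidative stress OXI1, and UV-C raised 8, 10 and 6 of these lists. Of the 14 listed genes of oxidative stress ZAT12, GSTU24, GSTU25 and RRTF1 could not be read and 1 was too low to test. None of 16 genes of the UV-B and light response and of 15 clock genes passed with Zeocin. With UV-C 4 rose and 9 fell of the former and 3 rose and 7 fell of the latter. LHY, a morning clock factor, had 29.2 CPM as its mean in mock and 8.6 in normal light, and rose with UV-C to 48.3 (2.48 ± 0.24). The time of day of the pairs is not given in the labels.

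Promoters were searched in the TAIR10.1 RefSeq genome, in the 500 bases before each annotated gene start, since SOG1 is known to bind CTT and AAG set apart by 7 bases of any kind. The motif, a palindrome and so the same on both strands, was in 79 of 272 genes that rose with both (29.0%), in 24 of 108 that rose with Zeocin only (22.2%) and in 21 of 90 opposite genes higher with Zeocin (23.3%). It was in 17.5% of the 20109 promoters of tested genes, in 18.3% of genes raised by UV-C only and in 16.2% of those lowered by it. AACGG, the core of the element bound by MYB3R factors, was on either strand of 24 of 51 promoters of genes that fell with both (47.1%), beside 35.3% of all. TTGACC, a W-box letter string for WRKY factors, was in 25.1% of promoters of genes raised by UV-C only, in 18.4% of those lowered and in 20.8% of all. For TTGACT the shares were 37.4%, 27.0% and 31.6%. CACGTG and GCCGCC were in 10.2% and 4.33% of all promoters and in 10.7% and 5.16% of those of genes raised by UV-C only. A match is a run of letters and not a shown binding site.

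The named genes that rose with Zeocin and hold the SOG1 letters are shown with 20 bases on each side of the match nearest to the gene start, in the sense of the gene and with the match in capitals. They are shown because they are the genes named by rule in the shared, Zeocin-only and opposite classes that hold the motif. The coordinates are left out because no source used here names the build behind the table.
AT1G20750, shared: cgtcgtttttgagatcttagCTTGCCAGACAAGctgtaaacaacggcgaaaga
NAC085, shared: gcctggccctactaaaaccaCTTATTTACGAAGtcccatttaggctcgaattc
AT4G05380, shared: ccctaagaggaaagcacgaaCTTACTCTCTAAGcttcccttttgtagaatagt
AT1G68240, Zeocin only: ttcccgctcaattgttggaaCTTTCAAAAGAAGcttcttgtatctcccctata
AT5G23910, opposite: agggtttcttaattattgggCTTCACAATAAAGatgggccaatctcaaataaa
GH9B5, opposite: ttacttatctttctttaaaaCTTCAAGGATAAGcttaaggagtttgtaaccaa
The matches start 135, 270, 105, 65, 152 and 44 bases before the gene start in this order. AT1G20750 and AT4G05380 had nearly empty controls and rose with both treatments, while AT1G68240 with the same outer letters was at 0 counts after UV-C.

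The Col-0 libraries give the same 2 contrasts in plants that keep LINDA, with no Δlinda library in them. Of the 272 shared rises 260 could be read in Col-0, and 210 of these (80.8%) were shared rises there, beside 2.67% of all 19675 genes read in Col-0. Of 87 opposite genes higher with Zeocin 56 (64.4%) were in the same class in Col-0, beside 0.605% of all, and of 105 Zeocin-only rises 60 (57.1%), beside 0.635%. Of those 105, 98 rose with Zeocin in Col-0, beside 4.21% of all genes. In these 3 classes no gene fell with Zeocin in Col-0. Of 50 shared falls 22 (44.0%) were in the same class there, beside 0.966% of all. The counts were 4 of 16 opposite genes lower with Zeocin (25.0%), beside 0.142%, and 4 of 19 Zeocin-only falls (21.1%), beside 0.0966%. For UV-C-only rises and falls the shares were 81.2% and 83.3%, beside 26.0% and 26.3% of all genes. Since the decimal marks were placed with both genotypes in view, the shares were also taken over genes with no restored decimal in Δlinda. They were 79.6%, 61.7% and 56.8% for the first 3 classes. Col-0 entries of these genes may still hold placed marks, and the same model read the Δlinda entries as whole. These shares are therefore no independent check of the reading.

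Of the named genes, AT2G45460, TRFL10, RPA1E and CYCB1;1 were raised by Zeocin only in Col-0 as well. PARP1, called opposite in Δlinda, had a UV-C log2 fold of -0.25 ± 0.19 in Col-0 and was called Zeocin-only there. KCS17 and GR1, Zeocin-only in Δlinda, were shared rises in Col-0. Whether the difference between the responses itself depends on the genotype was tested by the three-way term. It passed for 0 of 19675 genes (0.0%) with edgeR, where the smallest adjusted p was 0.16 and 1051 genes (5.34%) had an unadjusted p under 0.05, and for 6 with DESeq2. A gene in 1 class in Δlinda and in another in Col-0 is therefore not shown to differ between them.

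**Figure D5:**
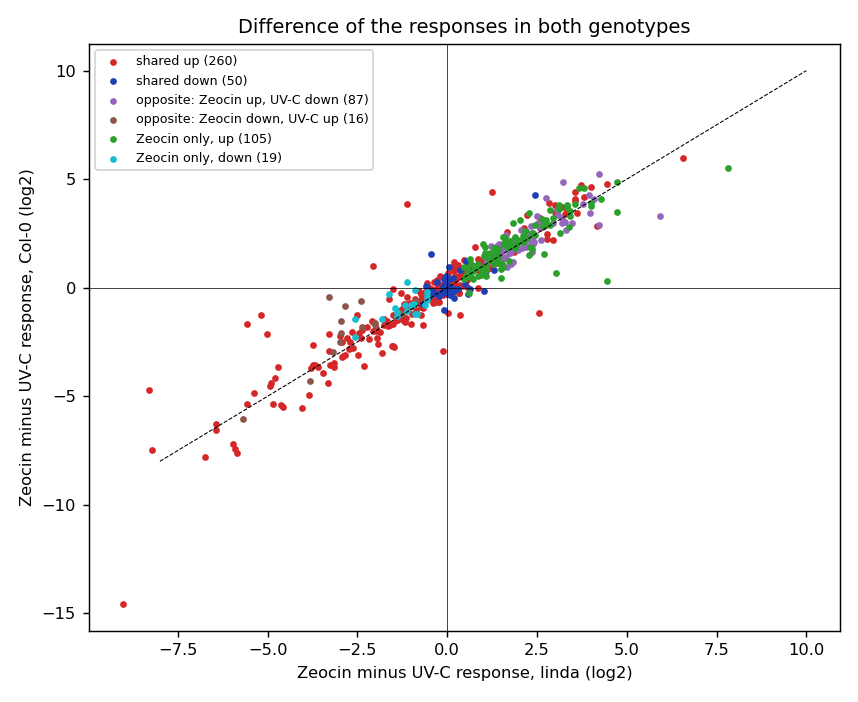
Zeocin minus UV-C log2 fold in Δlinda (horizontal) against the same in Col-0 (vertical) for the shared, opposite and Zeocin-only genes read in both genotypes; the dashed line marks equal values. All 87 opposite genes higher with Zeocin lie above 0 on both axes, and 104 of 105 Zeocin-only rises have the same sign in both.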

How the data were processed

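RNA-seq of whole Arabidopsis seedlings was analysed from 1 table of the authors' estimated counts per gene in 30 libraries. Per the submitters' processing notes the tools include Trimmomatic 0.38.0, FastQC 0.72 and Salmon 0.14.1.2, and the genome build, annotation and strand are not given in the sources used here. The deposited estimated counts had lost their decimal mark: of 723692 entries above 0, 109992 (15.2%) were read as holding decimals and divided accordingly, by a model of replicate, treatment and genotype spread. That model was adjusted several times after its output had been seen, so a change between genotypes much beyond its assumed spread can be misread. Of 20730 genes with a mean of 10 or more, 1540 (7.43%) could not be read and were left out. Counts over gene lists cover tested members only. Unread members not named above include ACS7 and ERF6 (ethylene), AOX1D and NDB4 (mitochondrial stress), and JAZ8, VSP2 and PDF1.2 (jasmonate). On simulated data with lost marks 8.14% of 19813 genes were left out and 1 kept gene was wrong. The simulation took the restored levels and decimal rates of clearly read genes as true. It therefore cannot show how many genes of the deposited table were misread.

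Restored counts were rounded to whole numbers, filtered with filterByExpr (10 counts, 15 in total), scaled by TMM and fitted with edgeR 4.0.16 (robust quasi-likelihood F test) over all 30 libraries, which share 1 estimate of spread. P-values were adjusted by Benjamini-Hochberg over 20257 genes, with a threshold of 0.05, and SE is the log2 fold divided by the root of F. CPM are counts scaled to the TMM library size. Totals were 7.52 to 14.53 M (mega) counts, and intervals and floors of 3 counts cover counting error only. Replicates had Spearman correlations of 0.972 to 0.992. Groups follow the titles; for 1 mock Col-0 library another label names the mutant, and it enters the Col-0 values only. The protocol text ties mock to medium with Zeocin, against the titles, which were followed.

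Per class up to 8 genes were named among those with a group mean of at least 5 CPM and no overlap of treated and control libraries in each response the class needs. They are those with the largest smaller fold (shared classes) or the largest difference of the folds (other classes), and genes of the lists were added. The members, lists and rules were chosen with earlier results of these data known. Alternatives were the Δlinda libraries alone, DESeq2 1.42.0 with its own or edgeR with RLE size factors, no filter, no organelle genes, the replicate block, other readings of the decimal mark, a fold threshold and leaving out each library. One gene of the break-response list is counted in it but not reported singly here.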

Additional observations from a re-analysis of the deposited data

Results flagged for a closer look

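In 161 groups of 4 libraries of the named genes, 10 held 1 value far from the other 3, its gap to the nearest value over the range of the group being above Dixon's 95% critical value. Chance flags about 1 in 20 groups. AT4G25330 had 31.6 CPM in Zeocin replicate 1 against 17.4 to 19.2 in the others, AT4G22960 had 48.6 in replicate 3 against 75.8 to 78.3, and AT2G04495 had 1.88 in replicate 4 against 0.876 to 0.94. FMO1 and SAUR68 had 10.8 and 5.32 CPM in Zeocin replicate 3, against 2.0 to 3.36 and 1.5 to 2.03 in the others. In normal light ABCB13 had 6.73 CPM in replicate 4 against 3.88 to 4.22, BGAL4 had 11.8 in replicate 2 against 8.48 to 8.86, TRFL10 had 5.79 in replicate 1 against 3.07 to 3.38, and IAA5 had 1.89 in replicate 4 against 1.23 to 1.32. After UV-C CYP79B3 had 254 CPM in replicate 4 against 214 to 220.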

How the results depend on the processing

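Among the genes named by rule no direction reversed under any alternative run. They were picked from these same libraries for large folds and groups that did not overlap, so the choice itself made reversals unlikely. Genes named only from the lists, and all other genes, were not checked for reversals. With a log2 fold of at least 1 required, 365 genes were called with Zeocin, 7960 with UV-C and 7281 for the difference, and the classes held 142 shared rises, 9 shared falls, 16 and 7 opposite genes (higher and lower with Zeocin), 9 Zeocin-only falls and 3479 and 3003 UV-C-only rises and falls. With the decimal mark placed without groups, which leaves fewer genes, Zeocin called 318, with 128 shared rises, 33 shared falls, 57 and 9 opposite genes and 58 Zeocin-only rises. That reading left 5 of the 24 break-response genes, of which 2 rose with Zeocin and 1 with both treatments. It left 3 salicylic acid, 2 pattern-triggered immunity and 1 mitochondrial stress genes, of which 3, 0 and 1 rose with UV-C. Most members of these lists were thus read only with the groups in view. Without genes holding restored decimals in Δlinda, 16 break-response genes were left, of which 14 rose with Zeocin and 7 with both treatments. That run left 12 salicylic acid, 9 pattern-triggered immunity and 7 mitochondrial stress genes, of which 12, 8 and 7 rose with UV-C. The same model had read the Δlinda entries of these genes as whole. DESeq2 called 103 shared falls, 36 opposite genes lower with Zeocin and 6 genes for the three-way term; the cause was not tested. With a looser genotype spread, chosen after seeing the data, the three-way term called 1 gene, and over genes read in all 30 libraries, also chosen so, Zeocin called 594 and UV-C 13749. Leaving out 1 library at a time gave 418 to 653 genes for Zeocin, 13511 to 14168 for UV-C, 10577 to 11320 for the difference and 0 to 1 for the three-way term. It gave 197 to 305 shared rises, 17 to 63 shared falls, 58 to 98 and 8 to 20 opposite genes, 83 to 116 and 6 to 22 Zeocin-only rises and falls, and 5050 to 5537 and 4780 to 5317 UV-C-only rises and falls. Whether replicate numbers pair the samples was not settled. Correlations of same-numbered deviations were 0.01, -0.1 and -0.41 for mock and Zeocin, and 0.17, -0.07, 0.36 and 0.27 for normal light and UV-C. Differently numbered libraries were not compared, so these values have no reference. With the replicate block Zeocin called 542 genes, UV-C 14005 and the difference 11153. Of the values of the genes named by rule 2942 stayed on their side of the threshold and 124 no longer passed, 102 of these when a library was left out. Since these genes were picked for large folds and separate groups, the counts do not show how well other genes hold.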
